A study of Mus musculus with 5 samples.

Results

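The melanin pigmentation genes described here are 10 genes chosen by symbol, Tyr, Tyrp1, Dct, Pmel, Mlana, Slc45a2, Oca2, Mitf, Gpr143 and Slc24a5, out of 33636 genes in the table. Each symbol matched 1 gene. RNA of the retinas of male wild-type C57BL/6J mice, an inbred strain with pigmented eyes, was sequenced at postnatal day (P) 42 after 2 weeks of form deprivation that began at P28. In form-deprivation myopia (FDM), a translucent goggle blurs the image in 1 eye of a young animal. The goggle sat on the right eye, and the left eye stayed uncovered as control, so the side of the eye and the treatment cannot be told apart. The data comprised 2 libraries of FDM eyes and 3 of control eyes. Both eyes of mouse 1 (FDM 1, Control 1) and of mouse 3 (FDM 3, Control 3) were sequenced, but of mouse 2 only the control eye was used. The table and the study's supplement number the second FDM library 3, the number used here, while its label numbers it 2. Totals ran from 40599047 to 56534931 estimated counts per library, and levels are given as CPM, counts per 1000000 counts of a total scaled with TMM, a normalization that compares each library's genes with a reference library. A count of 3, the floor used for detection, corresponded to between 0.0526 and 0.0751 CPM, which covers counting error only.

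Melanin is made in melanosomes, organelles of melanocytes and of the retinal pigment epithelium (RPE). Tyrosinase starts the pathway, and its relatives Tyrp1 and Dct act on later intermediates. Pmel forms the fibrils on which the pigment is laid down, transporters in the melanosome membrane set its ions and acidity, and the transcription factor Mitf controls many of these genes. The neural retina makes no melanin itself. In the eye the pigment lies in the RPE, which touches the outer retina, and in melanocytes of the choroid behind it, as well as in the iris and ciliary body.

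The melanin pigmentation genes were below their control mean in the FDM eyes for all 9 members that could be tested, but only Oca2 passed the threshold of the study, an unadjusted p of 0.05, as did 1.61% of all 17432 genes tested, and no member passed after adjustment over these genes. The log2 fold changes of FDM against control ran from -2.17 to -0.15, with a median of -1.19, whereas the median over all genes tested was -0.01 and 55.58% of those genes lay below 0. The members' median was -0.57 with the authors' normalization factors in edgeR and -0.47 in limma on their normalized counts. The log2 range among the 3 control eyes was larger than the size of this fold change for all 9, from 0.29 to 4.57. This comparison was not made over all genes tested, so it cannot be read as particular to the members. Control 3 had the highest level of 8 of the 9 members and Control 1 the lowest of 5. Over all genes tested, Control 3 was highest for 20.2% and Control 1 lowest for 24%. DESeq2 called 1 of the 9, Oca2, with 0 after adjustment, and 172 genes or 0.987% overall. The test treats the eyes as separate samples, although the eyes of one mouse share an animal. In bulk RNA, a smaller amount of pigmented tissue in the sample and less RNA per cell cannot be told apart.

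The promoters of the members are shown first, because several hold a short sequence that Mitf and its relatives are known to recognise. The 250 bases upstream of the start site were taken from RefSeq on GRCm38.p6, and 6 members matched, Tyr, Tyrp1, Dct, Oca2, Mitf with 3 starts, and Slc24a5. Pmel, Mlana, Slc45a2 and Gpr143 had no entry. The 7 bases TCATGTG, searched on both strands and read as CACATGA on the opposite one, were found in 4 of these 6 members, Tyr, Tyrp1, Dct and Slc24a5. The same 7 bases were in 1006 of 27025 genes in the same window, or 3.72%. The related TCACGTG was in 0 of the 6 members and in 3.58% of all genes. The whole window is printed for Tyr at chr7:87493513-87493762 and Dct at chr14:118052247-118052496, both on the minus strand, and 30 bases for Tyrp1 at chr4:80834155-80834184 and Slc24a5 at chr2:125068097-125068126, both on the plus strand. Capitals mark TCATGTG on either strand, and each sequence is written from 5′ to 3′ along the gene.
Tyr: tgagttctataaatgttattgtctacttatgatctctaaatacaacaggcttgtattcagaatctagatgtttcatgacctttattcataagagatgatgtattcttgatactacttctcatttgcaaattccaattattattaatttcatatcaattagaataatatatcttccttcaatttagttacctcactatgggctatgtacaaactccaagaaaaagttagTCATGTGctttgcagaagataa
Tyrp1: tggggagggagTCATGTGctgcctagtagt
Dct: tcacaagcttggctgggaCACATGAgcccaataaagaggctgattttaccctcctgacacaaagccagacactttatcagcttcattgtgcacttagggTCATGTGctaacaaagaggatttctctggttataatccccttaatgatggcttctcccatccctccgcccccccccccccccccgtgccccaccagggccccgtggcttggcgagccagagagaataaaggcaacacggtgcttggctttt
Slc24a5: ggaggaaggagactgctCACATGAttcagc

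Counted back from the RefSeq start site, the first base of the match was at -22 in Tyr, at -47 in Tyrp1, and at -151 and -232 in Dct, the latter on the opposite strand. In Slc24a5 it was at -13, also on the opposite strand. The last 90 bases of the Tyrp1 window, with the match, lie inside the gene as GENCODE M21 annotates it, and the last 3 bases of the Slc24a5 window do too. A match of letters is a description of the sequence and no binding was measured here. Of the 4 genes with a match, Tyr, Tyrp1 and Dct varied from 2.35-fold to 10.5-fold between libraries and Slc24a5 by 1.28-fold. Slc24a5 shares 39.5% of its exon bases with Myef2 on the opposite strand. Its level can therefore include reads of Myef2, and whether the 4 genes share a pattern cannot be decided.

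Per kilobase of exon, the highest median level belonged to Slc24a5, with 4.43 CPM per kb and a range of 4.11 to 5.29 over the 5 libraries. This level can include reads of Myef2, which shares 39.5% of the exon bases of Slc24a5. Dct followed with a median of 1.93 (1.25 to 13.1), then Tyrp1 with 1.55 (0.762 to 7.43) and Pmel with 1.34 (0.743 to 7.12). The ranges of these 3 genes overlapped almost entirely, and their order was the same in every library but FDM 1, where Pmel came before Dct. Mitf had a median of 0.963 CPM per kb (0.873 to 1.38), Tyr 0.787 (0.670 to 1.58) and Mlana 0.728 (0.196 to 5.06), and neighbours among these 3 did not differ beyond their spread. Oca2 at 0.240 (0.204 to 0.627) and Slc45a2 at 0.218 (0.209 to 0.339) could not be separated either. Gpr143 had the lowest level in every library, with a median of 0.0925 and a highest value of 0.193, which is under the lowest value of Slc45a2. Slc24a5 had the highest level in 4 of the libraries and rank 4 in Control 3, where Dct, Tyrp1 and Pmel stood above it.

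**Figure D1:**
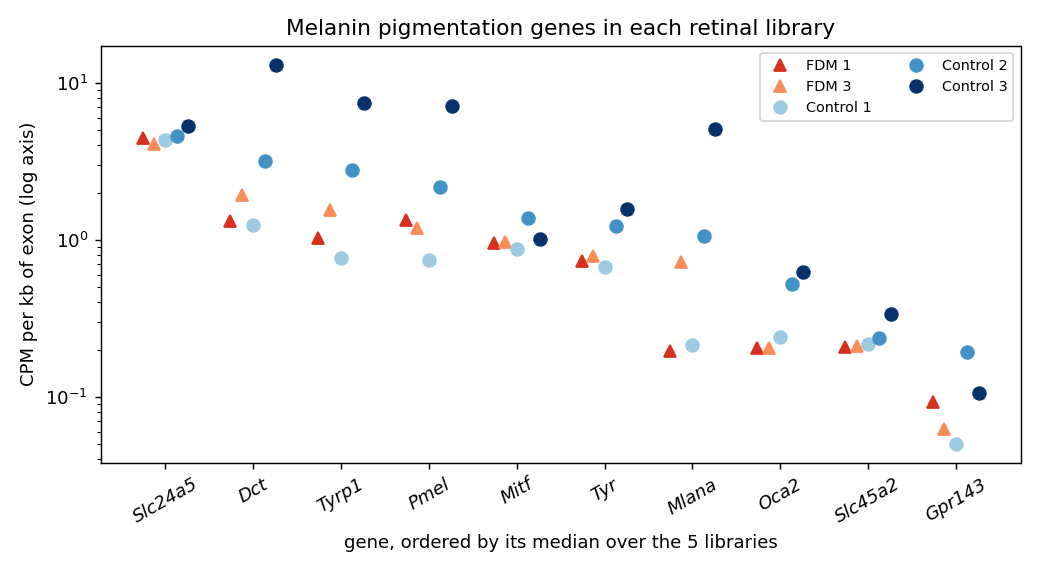
Level of each melanin pigmentation gene in the 5 libraries on a log axis, with 1 point per library. The Control 3 point is the highest for every gene but Mitf and Gpr143, and the Control 1 points lie beside or below those of the FDM libraries for Tyr, Tyrp1, Dct and Pmel.

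The first group of members are the enzymes. Tyr, on chr7:87424771-87493512 of GRCm38, encodes tyrosinase, the rate-limiting enzyme of melanin synthesis. It had 227 and 269 counts in FDM 1 and FDM 3 and 190, 499 and 532 counts in the controls 1 to 3, which is 5.24 and 5.59 CPM against 4.76, 8.75 and 11.2 CPM. The FDM libraries lay above Control 1 and below the other 2 controls, so the groups overlapped. The mean was 5.42 ± 0.252 CPM (SD, n = 2) in FDM and 8.24 ± 3.25 CPM (SD, n = 3) in control eyes, and the log2 fold change of -0.61 (SE 0.32) did not pass the test (edgeR, unadjusted p = 0.0956, adjusted p = 1.0).

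Tyrp1, on chr4:80834123-80851719, encodes a tyrosinase-related protein that acts late in the synthesis of the dark pigment eumelanin and steadies tyrosinase. It had 126 and 211 counts in FDM 1 and FDM 3 against 86, 451 and 998 counts in Control 1, Control 2 and Control 3, or 2.91 and 4.39 CPM against 2.15, 7.91 and 21.0 CPM. Control 1 was the lowest library and Control 3 the highest, with 9.76 times the level of Control 1, and both FDM libraries lay between them. The log2 fold change was -1.51 (SE 0.79), which did not pass the test (edgeR, unadjusted p = 0.0980, adjusted p = 1.0).

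Dct, on chr14:118012790-118052244, encodes dopachrome tautomerase, which converts dopachrome to a carboxylated intermediate. The FDM eyes 1 and 3 had 338 and 547 counts and the control eyes 1 to 3 had 293, 1067 and 3653 counts, or 7.80 and 11.4 CPM against 7.34, 18.7 and 76.9 CPM. FDM 1 and Control 1, the eyes of one mouse, were almost level at a ratio of 1.06, while Control 3 was 4.11 times Control 2. The control mean of 34.3 ± 37.3 CPM (SD, n = 3) had an SD larger than itself, against 9.59 ± 2.53 CPM (SD, n = 2) in FDM. The log2 fold change of -1.84 (SE 0.88) did not pass the test (edgeR, unadjusted p = 0.0728, adjusted p = 1.0).

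Pmel and Mlana are proteins of the melanosome body. Pmel, on chr10:128704195-128720238, makes the amyloid fibrils of the early melanosome, and 105 of its exon bases (4.58%) are shared with Dgka and 34 (1.48%) with Cdk2 on the opposite strand. Its counts were 133, 132, 68, 283 and 775 in FDM 1, FDM 3, Control 1, Control 2 and Control 3, or 3.07, 2.75, 1.70, 4.96 and 16.3 CPM. Both FDM libraries were higher than Control 1 and lower than Control 2 and Control 3. The log2 fold change was -1.40 (SE 0.80), which did not pass the test (edgeR, unadjusted p = 0.121, adjusted p = 1.0).

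Mlana, on chr19:29697824-29708634, encodes a small membrane protein that binds Pmel and is used as a marker of pigment cells. It had 9 and 37 counts in FDM 1 and FDM 3 and 9, 64 and 254 counts in Control 1, Control 2 and Control 3, which is 0.208 and 0.769 CPM against 0.225, 1.12 and 5.35 CPM. Here the libraries of mouse 1 were both low, and Control 3 stood 23.7 times above Control 1, the widest gap between control eyes of any member. With a log2 fold change of -2.17 (SE 1.17), the largest of the members, the unadjusted p was 0.104 and the adjusted p 1.0 in edgeR.

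**Figure D2:**
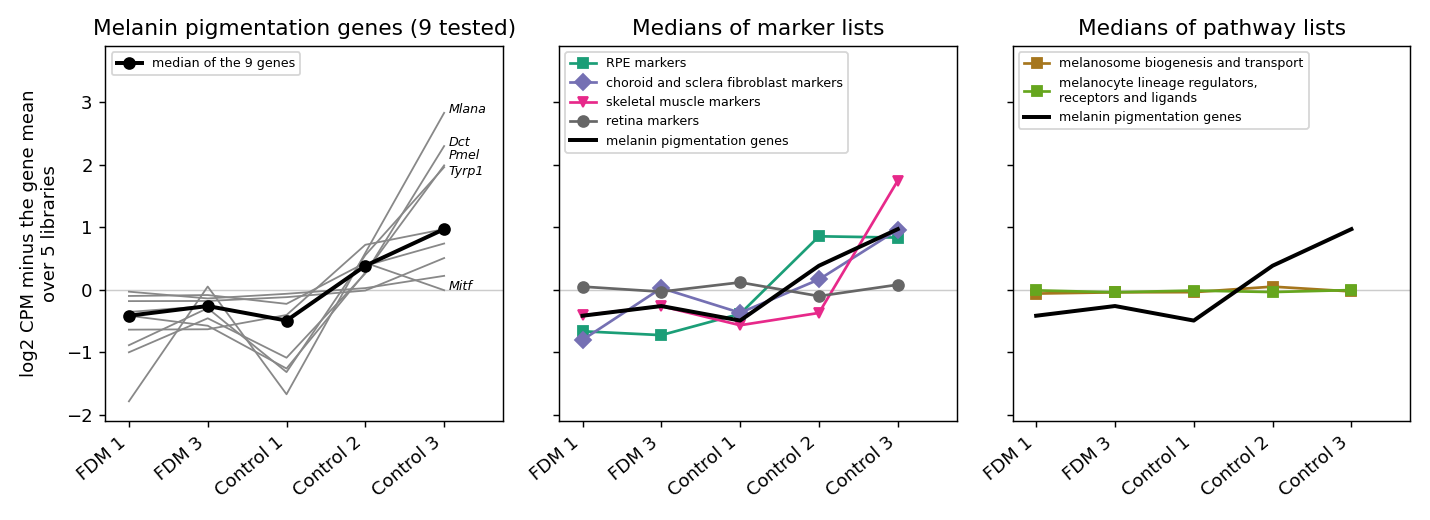
Log2 level of each tested member in the 5 libraries relative to that gene's own mean, 1 line per gene, with the median of the members. The median runs from -0.42 in FDM 1 and -0.26 in FDM 3 to -0.50 in Control 1, 0.38 in Control 2 and 0.97 in Control 3, so that Control 1 lies with the FDM libraries.

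The transporters varied less between libraries, from 1.28-fold for Slc24a5 to 3.08-fold for Oca2, than Tyrp1, Dct, Pmel and Mlana, at 9.58-fold to 25.8-fold. This was not particular to transporters, as Tyr varied 2.35-fold and Mitf 1.58-fold. Gpr143, with few counts, varied 3.85-fold. Oca2, on chr7:56239760-56536518, encodes a membrane protein of the melanosome that raises its pH, and its loss causes oculocutaneous albinism. The FDM eyes 1 and 3 had 35 and 39 counts and the control eyes 1 to 3 had 38, 119 and 118 counts, or 0.807 and 0.811 CPM against 0.952, 2.09 and 2.49 CPM. Both FDM libraries were below all 3 control libraries, by a small margin against Control 1. The mean was 0.809 ± 0.00249 CPM (SD, n = 2) in FDM and 1.84 ± 0.796 CPM (SD, n = 3) in control eyes. Oca2 fell with a log2 fold change of -1.19 (SE 0.40) at an unadjusted p of 0.0191 in edgeR, ranking 90 among all genes tested, with an adjusted p of 1.0. This 1 call among 9 members compares with 281 of 17432 genes, or 1.61%, of which 79 were higher and 202 lower.

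Whether Oca2 passed the test depended on the normalization. The authors also deposited counts divided by a factor for each gene and library, and relative to the median of the library these factors for Oca2 were 0.782 and 0.752 in FDM 1 and FDM 3 and 0.925, 1.33 and 1.39 in the controls 1 to 3. For comparison, the central 90% of the factors of 7559 well-covered genes, those over 1000 counts throughout, lay within 0.944 to 1.07 in each library. After this division the normalized counts of Oca2 were 48.5 and 50.6 in FDM against 47.8, 73.9 and 84.1 in the controls, and Control 1 was then the lowest library. With these factors as offsets in edgeR, an alternative chosen after seeing the data, the log2 fold change was -0.48 (unadjusted p = 0.129, adjusted p = 1.0). No member was called in that fit, against 330 genes or 1.89% overall. Dct, Mlana and Slc45a2 had factors close to 1 in every library. Those of Slc24a5 ran from 0.870 to 1.12, of Tyrp1 from 0.877 to 1.09 and of Gpr143 from 0.803 to 1.06. No member had over 1000 counts in every library, so the well-covered genes are not matched to the members in counts.

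**Figure D3:**
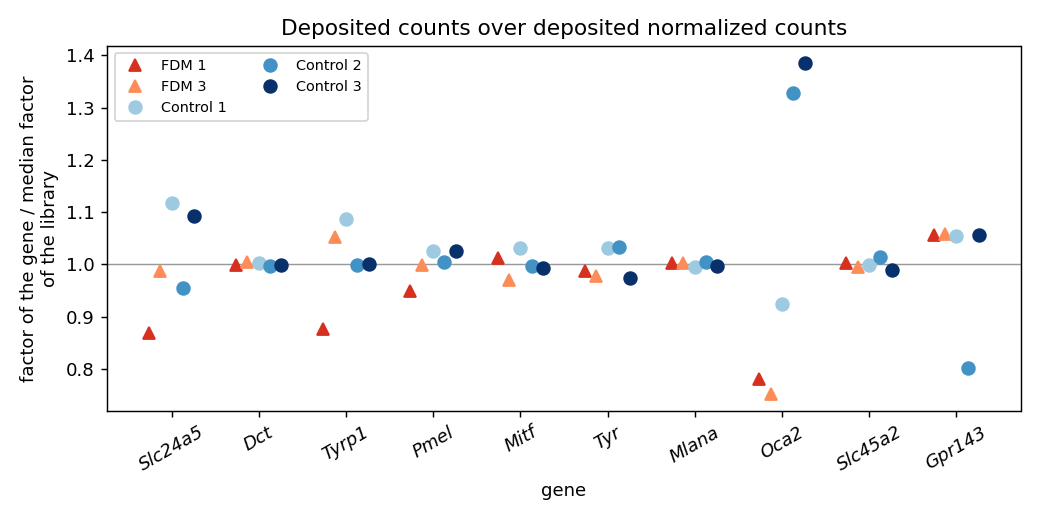
Ratio of deposited counts to deposited normalized counts for each member and library, relative to the median ratio of that library, with 1 point per library and a line at 1. Oca2 has the widest spread, from 0.752 in FDM 3 to 1.39 in Control 3, and the points of Dct, Mlana and Slc45a2 lie close to the line.

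Slc45a2, on chr15:11000721-11029233, encodes a transporter that also acts on melanosome pH. Its counts were low, at 27 and 30 in FDM 1 and FDM 3 and 26, 40 and 48 in Control 1, Control 2 and Control 3, or 0.623 and 0.624 CPM against 0.651, 0.702 and 1.01 CPM. Both FDM libraries again lay below all controls, although Control 1 differed from them by less than the controls did from each other. The log2 fold change of -0.34 (SE 0.28) did not pass the test (edgeR, unadjusted p = 0.264, adjusted p = 1.0). Oca2 and Slc45a2 were the 2 members whose groups did not overlap, and among all genes tested 1163, or 6.67%, had both FDM libraries below all controls.

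Slc24a5, on chr2:125068124-125088677, encodes a sodium and calcium exchanger needed for pigmentation. It had 448, 461, 403, 613 and 585 counts in FDM 1, FDM 3, Control 1, Control 2 and Control 3, or 10.3, 9.59, 10.1, 10.7 and 12.3 CPM. The groups overlapped, and the mean was 9.96 ± 0.530 CPM (SD, n = 2) in FDM and 11.1 ± 1.14 CPM (SD, n = 3) in control eyes. The log2 fold change was -0.15 (SE 0.12), which did not pass the test (edgeR, unadjusted p = 0.256, adjusted p = 1.0). Of the exon bases of Slc24a5, 921 (39.5%) are shared with Myef2 on the opposite strand, which had 3567 to 6525 counts, and the library kit keeps no strand, so reads of the shared bases cannot be told apart. Without Slc24a5 the median log2 fold change of the members was -1.30.

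The last members are a receptor and a regulator. Gpr143, on chrX:152781921-152808646, encodes a receptor in the melanosome membrane whose loss causes ocular albinism. With 8 and 6 counts in FDM 1 and FDM 3 and 4, 22 and 10 counts in Control 1, Control 2 and Control 3, it had over 10 counts in only 1 library and was not tested. The highest level, in Control 2, was 0.386 CPM, and no difference was detectable at this depth.

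Mitf, on chr6:97807052-98021349, encodes the transcription factor that drives pigment cell genes, and GENCODE M21 annotates 8 transcripts of it, which were summed to the gene. Its counts were 256, 287, 216, 487 and 299 in FDM 1, FDM 3, Control 1, Control 2 and Control 3, or 5.91, 5.97, 5.41, 8.54 and 6.30 CPM. Control 2 was the highest library, unlike for the other tested members, and Control 1 and Control 3 enclosed both FDM libraries. The log2 fold change of -0.19 (SE 0.20) did not pass the test (edgeR, unadjusted p = 0.367, adjusted p = 1.0).

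**Figure D4:**
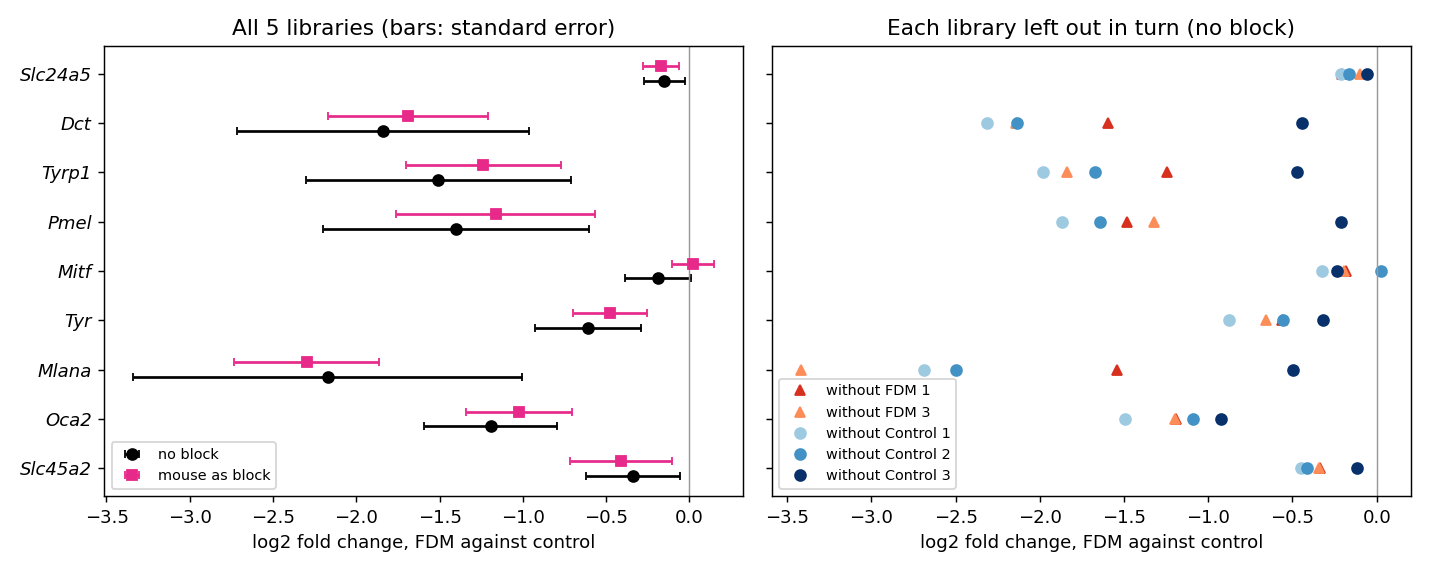
Log2 fold changes of FDM against control for the 9 members tested. The left panel gives the edgeR estimates without and with the mouse as a block, with bars of 1 SE to each side, and the right panel the estimates with each library left out. Dct moves from -1.84 to -0.44 without Control 3, while Oca2 stays between -1.49 and -0.92.

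The difference between FDM and control eyes was not alike in the 2 mice with both eyes. In mouse 1, 6 of the 9 members were higher in the FDM eye and 3 lower, with a median log2 difference of 0.09 and a range of -0.23 to 0.85. In mouse 3, all 9 were lower in the FDM eye, with a median of -1.60 and a range of -2.78 to -0.08. Over all genes tested the median difference was -0.02 in mouse 1 and 0.00 in mouse 3. Dct differed by 0.09 in mouse 1 and by -2.76 in mouse 3, Pmel by 0.85 and -2.57, and Oca2 by -0.23 and -1.60. There is 1 pair of eyes in each mouse, so the difference between the mice was not tested.

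With the mouse as a block, 4 members were called lower in edgeR, Tyrp1, Dct, Mlana and Oca2, against 1261 genes, or 7.23%, overall. Their log2 fold changes in this fit were -1.24, -1.69, -2.30 and -1.02, with adjusted p-values of 0.639, 0.499, 0.128 and 0.563, and no member was among the 54 genes (0.31%) with an adjusted p under 0.05. The block leaves 1 residual degree of freedom, because Control 2 has no partner. Mitf had a log2 fold change of 0.02 in this fit, opposite in sign to that without the block. Pairing by the numbers in the labels, which would put the second FDM library with Control 2, called Dct at -0.34 and Oca2 at -0.85, with adjusted p-values of 1.0 and 0.358, against 439 genes or 2.52%. The median of the members was -0.27 with this pairing.

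Leaving out a single control library changed the size of most differences. Without Control 1, Tyr, Tyrp1, Dct, Pmel, Mlana and Oca2 were called lower, 6 of 9 members, at log2 fold changes from -2.69 to -0.88, while 944 genes or 5.42% were called overall. Without Control 3 no member was called, against 146 genes or 0.838%, and the log2 fold changes of Dct, Mlana, Tyrp1 and Pmel were -0.44, -0.50, -0.47 and -0.21. The median of the 9 members was then -0.32. Without FDM 1 no member was called, against 165 genes or 0.947%, and without FDM 3 none, against 196 genes or 1.12%, with the lone FDM library assumed to vary like the controls. Oca2 then had an unadjusted p of 0.0559 and 0.0580, with an adjusted p of 1.0 in edgeR for both. In all of these fits the sign was kept for every member but Mitf, which was at 0.03 without Control 2.

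The other genes of the melanosome had mostly small fold changes. The list held 23 genes for melanosome biogenesis and transport, such as the subunits of the BLOC and AP-3 complexes. Of these, 0 passed the test in edgeR or in DESeq2 in either direction. With the mouse as a block, 2, Gpnmb and Cd63, were called lower, against 1261 genes or 7.23% of all tested. Without the block the median log2 fold change of the 23 was -0.06, and 16 of 23 lay below 0, against 55.58% of all genes. Without Control 1, 5 of the 23 were called lower, against 944 genes or 5.42% called in either direction. The most abundant were Ap3d1, a subunit of the sorting complex AP-3, with 214 to 251 CPM, and Myo5a, the motor that carries melanosomes along actin, with 133 to 204 CPM, and both are also used by other cells. Gpnmb, a relative of Pmel named here after its values were seen, had 245 and 441 counts in FDM 1 and FDM 3 and 280, 690 and 1866 in Control 1, Control 2 and Control 3. Like Dct it was highest in Control 3, with a log2 fold change of -1.39 (SE 0.68) that did not pass (edgeR, unadjusted p = 0.0785, adjusted p = 1.0).

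Of the regulators, receptors and ligands of the melanocyte lineage, 9 of 10 genes were found, Asip being the gene not analysed here, and 0 passed the test in either direction in edgeR or in DESeq2. Their median log2 fold change was -0.08. Tfap2a, a transcription factor of neural crest and of amacrine cells, was the most abundant with 42.6 to 47.5 CPM, and Mc1r, the receptor for melanocyte-stimulating hormone, had 503 to 627 counts, so neither varied with the pigmentation genes. Sox10, which works upstream of Mitf in melanocytes, was singled out after its values were seen. It had 17 and 14 counts in FDM 1 and FDM 3 and 15, 44 and 37 counts in Control 1, Control 2 and Control 3, and did not pass (edgeR, unadjusted p = 0.0506, adjusted p = 1.0). With the mouse as a block in edgeR, Kitl, the ligand of the receptor Kit, was called higher and Edn3, a peptide ligand, lower. Their adjusted p-values were 0.683 and 0.687, and that fit called 7.23% of all genes tested.

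RPE, fibroblast and muscle markers were, like the pigmentation genes, lower on average in the FDM eyes, and their part in the result was not tested. The median log2 fold change of 12 RPE markers was -1.32. In FDM, 10 of the 12 were called lower, against 281 genes or 1.61% of all tested called in either direction. The 10 were Rpe65, Kcnj13, Ttr, Slc16a8, Lrat, Rgr, Rdh5, Stra6, Cldn19 and Mfrp, while Best1 and Rrh did not pass. The study had picked 9 of these 12 on the same samples, so their direction is no independent evidence. Of the other 3 genes 1, Cldn19, was called. These 3 are what the study's choice left and were read in the same samples, so they are no independent check either. Rpe65, the isomerase of the visual cycle, had 238 and 217 counts in FDM 1 and FDM 3 and 214, 1589 and 1123 in Control 1, Control 2 and Control 3. The summed level of the 12 markers was 108 and 95.2 CPM in FDM and 116, 330 and 298 CPM in the controls. Without Control 3, 4 of the 12 were called, against 146 genes or 0.838% of all tested.

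The pigmentation genes and the RPE markers were not most often highest in the same library. Of the RPE markers, 9 of 12 were highest in Control 2 and 3 in Control 3, whereas 8 of 9 pigmentation genes were highest in Control 3. Over all genes tested Control 2 was the highest library for 31.4% and Control 3 for 20.2%. For the RPE markers these libraries were close. Their median log2 level relative to each gene's mean was 0.85 in Control 2 and 0.83 in Control 3. For the pigmentation genes it was 0.38 and 0.97. The summed level of the 10 pigmentation genes was 37.1, 41.98, 33.4, 63.9 and 153 CPM in FDM 1, FDM 3, Control 1, Control 2 and Control 3, which is 34.2%, 44.1%, 28.7%, 19.4% and 51.3% of the RPE sum. For 100 counts of Rpe65 there were 142, 252, 137, 67.2 and 325 counts of Dct. The ratio was thus lowest in Control 2 and highest in Control 3, the 2 libraries with the most RPE marker RNA. For Tyr the same ratio was 95.4, 124, 88.8, 31.4 and 47.4, so that in both Control 2 and Control 3 Tyr was low relative to Rpe65.

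Most markers of fibroblasts and of skeletal muscle were also highest in Control 3. Of 5 fibroblast markers of choroid and sclera that were tested, 0 were called in edgeR or in DESeq2 and 4 were highest in Control 3, and the summed level of the 6 fibroblast markers found, with 1 below the count filter, was 16.4 and 21.9 CPM in FDM and 17.7, 26.2 and 36.9 CPM in the controls. The most abundant were Pdgfra, at 8.14 to 11.3 CPM, and Col1a2, at 3.58 to 12.2 CPM. Of 4 muscle markers tested, 0 were called in edgeR and 1 in DESeq2, against 1.61% and 0.987% of all genes tested. All 4 were highest in Control 3. The sum of the 5 muscle markers found, with 1 below the count filter, was 55.8 CPM there against 9.24 to 10.7 CPM in the other 4 libraries. Ckm, the muscle creatine kinase, was at 12.0 CPM in Control 3 and 4.43 to 5.14 CPM elsewhere. With the mouse as a block, 3 fibroblast and 4 muscle markers were called lower, against 1261 genes or 7.23% of all tested. Dcn and Myl1 were among them, at adjusted p-values of 0.00582 and 0.0376 in edgeR, with 1 residual degree of freedom. Myl1 had 7 and 12 counts in FDM 1 and FDM 3 and 7, 28 and 590 in the controls 1 to 3. Without Control 3, 0 of the tested fibroblast and muscle markers were called in edgeR, against 146 genes or 0.838%.

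Lens markers followed another library. All 6, among them the crystallins Cryaa and Crybb2, were called higher in FDM, against 79 of all 17432 genes tested. They were highest in FDM 3, with a summed level of 1768 CPM there and 2.10 to 15.6 CPM in the other libraries. Without FDM 3 the median log2 fold change of the lens markers was -1.15, against 5.47 with all libraries. Markers of the neural retina were abundant throughout, such as Gnat1, the transducin of rods, with 547907 to 629160 counts. None of the 10 retina markers was called in edgeR or in DESeq2, and their median log2 fold change was -0.00. With the mouse as a block in edgeR, 2 of them were called lower, against 7.23% of all genes tested. They were Gnat1 at -0.15 and Rcvrn, a calcium sensor of photoreceptors, at -0.13, with adjusted p-values of 0.635 and 0.654. None of the listed genes found in the table was at 0 in all libraries.

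Among the 10 genes whose profile over the 5 libraries was most like the median of the tested members were Fbln5, Wls, Rbm47, Slc38a8, Dse, Ifitm2, Nkd2, Ucp2 and Bmp6. Likeness was measured as the root mean square difference of centred log2 CPM, over 14807 genes with a mean of at least 1 CPM, and ran from 0.0785 for Fbln5 to 0.187 for Bmp6. Fbln5, a protein of elastic fibres, had 68 and 81 counts in FDM 1 and FDM 3 and 52, 157 and 190 in Control 1, Control 2 and Control 3. Of these named genes, Ifitm2 was called lower (edgeR, unadjusted p = 0.0430, adjusted p = 1.0), against 281 genes or 1.61% of all tested. These genes were picked by their likeness, in the same libraries, to a profile that is lower in FDM on average. The call is therefore no separate result. Among the members, Tyr was closest to the median profile at 0.107 and Mlana farthest at 1.17. With 5 libraries these values describe the profiles and are no test.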

How the data were processed

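Retinal RNA of 2 FDM and 3 control eyes was sequenced from polyA-selected libraries as 50-base read pairs. Per the labels, reads were trimmed with Trimmomatic 0.39 and quantified with Salmon 1.10.1. The authors deposited the estimated counts, summed to genes as whole numbers, and a signal of counts normalized with a factor for each gene and library. Groups were taken from the labels, and eyes were paired by the mouse numbers of the study. The test was run on the estimated counts of the 17432 genes (of 33636) that exceeded 10 counts in 2 or more libraries. It was the quasi-likelihood test of edgeR 4.0.16 (R 4.3.3) after TMM scaling, without covariates. The threshold was an unadjusted p of 0.05, the study's own, with Benjamini-Hochberg adjustment over these genes beside it. Standard errors were derived from the F statistic, as the absolute log2 fold change over its square root. As alternatives, other scalings and filters, a block for the mouse, DESeq2 1.42.0 and the omission of single libraries were tried, and limma 3.58.1 was run on the normalized counts, log2-transformed with a pseudocount of 1 or 0.1. A fit with the deposited factors as offsets was added after seeing the data. Levels per kilobase used the exon union of GENCODE M21 on GRCm38, and promoters came from RefSeq. The steps were tested on simulated data.

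The members and gene lists were chosen with earlier results of these data known. Genes named are the members, the listed genes past the threshold, the 2 most abundant of each list and the 10 genes most alike in profile, except 2 that are not reported here. Gpnmb, Cd63, Sox10, Kitl, Edn3, Dcn, Myl1 and Rcvrn were named after their values were seen, as were Best1, Rrh and Asip, which complete a count. Deviations from the group means correlated across genes at 0.231 for FDM 1 and Control 1 and at 0.0907 for FDM 3 and Control 3, the eyes of one mouse each. The value was 0.155 for FDM 3 and Control 2, which share only the label number. With 2 FDM libraries the deviations of one mirror those of the other, so FDM 3 and Control 1 stood at -0.231. These values are therefore not separate checks of each pair. No 2 libraries agreed within sampling noise.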

Additional observations from a re-analysis of the deposited data

How the results depend on the processing

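In the main comparison 1 member was called. The count was 4 with all genes of at least 1 count and 4 with the replicate block by mouse, 2 with the block by the label numbers, and 0 with limma on the normalized counts at either pseudocount and with the deposited factors as offsets. With each library left out it ran from 0 to 6. The fold change turned in sign for Mitf, at 0.0212 with the mouse as a block and from -0.322 to 0.0287 with each library left out, being above 0 without Control 2. It also turned for Slc24a5, at 0.0433 and 0.0434 in the limma fits with a pseudocount of 1 and 0.1 and at 0.0400 with the factors as offsets. All of these fits of Slc24a5 use the deposited factors. With them its mean normalized count was 507 in FDM and 492 in control eyes. The cause of these turns in sign was not tested. Of 135 fold changes of members over 15 alternatives, 112 kept their direction and side of the threshold, 12 passed it only in the alternative, 6 only in the main comparison, and 5 turned in sign. The genes called overall numbered 281, and 1261 with the mouse as a block, 439 with the block by the label numbers, 498 with all genes of at least 1 count, 172 in the DESeq2 test, 300 and 293 in limma with a pseudocount of 1 and 0.1, 330 with the factors as offsets and from 146 (without Control 3) to 944 (without Control 1) with each library left out. With 2 FDM eyes, and members of under 50 counts such as Slc45a2 and Gpr143, small differences were not detectable at this depth.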
